A study of Homo sapiens with 18 samples.

Results

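The genes described here form a short route through the cell: heme is made, heme is opened, and the iron that comes out is stored, taken up or released. They were chosen by symbol from the deposited table of DESeq2 normalized counts. The list held 10 symbols (HMOX1, HMOX2, BLVRA, BLVRB, FTL, FTH1, TFRC, SLC40A1, SLC11A2 and FECH), and each matched 1 of the 56269 genes in the table. All 10 had a mean normalized count of at least 10 over the libraries and were among the 13686 genes tested, although SLC40A1 lay close to that minimum. A normalized count here is the number of reads of a gene divided by the size factor of its library.

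Heme oxygenases open the heme ring and set free iron, carbon monoxide and biliverdin, which the biliverdin reductases turn into bilirubin. HMOX1 is the inducible heme oxygenase and a well-known target of NRF2, the transcription factor that answers oxidants, and the ferritin genes FTH1 and FTL carry antioxidant response elements as well. Free ferrous iron turns peroxides into radicals, and ferritin keeps it out of that reaction, while iron regulatory proteins that bind hairpins in the untranslated ends of mRNAs set how much ferritin and transferrin receptor a cell makes.

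The study asked how hyaluronan (HA) of different polymer length, made by skin fibroblasts of the naked mole-rat, acts on stressed cells. IMR90 cells, a human lung fibroblast line, received either PBS or HA at 20 μg/ml, in both cases for 6 h. The HA was either cNSF-HA, the control preparation that was heated with inactive hyaluronidase, or fNSF-HA, which was partly cut by hyaluronidase before heating. Some of the cells were collected at that point, and the others were then exposed for 1 h to 200 μM tert-butyl hydroperoxide (tBHP), an organic peroxide, and kept for 5 h more. This gave 6 groups of 3 replicates, 18 libraries in all. No cell carried an added gene or a deletion, and the study calls its replicates biological. The p-values of the main fit rest on the spread between replicate libraries, pooled for each gene over all 6 groups. As replicates differed more after tBHP, this spread is on average too wide for comparisons without tBHP and too narrow for those after it. Cells without tBHP were collected at the end of the pre-incubation, so the 6 h that passed from the start of the exposure and the exposure itself cannot be told apart. A lower level in RNA from a dish also cannot tell fewer cells of a kind from less RNA per cell.

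Libraries held 20261103 to 26287660 reads. The median spread between replicates was 0.0761 on the log2 scale (SD within a group) without tBHP and 0.206 after tBHP. The cells carried fibroblast transcripts, with the 8 fibroblast markers adding up to 588985 to 610836 normalized counts in the libraries without tBHP and 452013 to 717947 after it. SFTPC, CDH5, CD163, HBA2 and GATA1, defining genes of lung epithelium, endothelium, macrophages and red cells, were at 0 in all 18 libraries. Of the 18 markers of those cell types in the lists, 3 had enough reads to be tested. KRT19, a keratin, held 76.6 to 196 normalized counts, EPOR, the erythropoietin receptor, 115 to 188, and VWF, an endothelial clotting factor, 3.73 to 25.0. The summed epithelial markers lay at 174 to 198 without tBHP and 81.9 to 184 after it, the endothelial ones at 6.52 to 14.8 and 13.1 to 25.1, the leukocyte ones at 0 to 6.84 and 1.01 to 13.7, and the red cell ones at 125 to 167 and 115 to 191. In PBS cells VWF rose by 1.32 (adjusted p = 0.00982) and EPOR by 0.35 (adjusted p = 0.0406) after tBHP on the log2 scale. KRT19 changed by -0.46 (adjusted p = 0.0745). With fNSF-HA, VWF (1.18) and KRT19 (-0.60) passed and EPOR (0.09) did not. With cNSF-HA, VWF (0.72), EPOR (0.23) and KRT19 (-0.49) did not pass. Of the 8 fibroblast markers 1 rose and 3 fell in PBS cells, where 24.2% of all genes tested rose and 26.9% fell. Their changes ran from 0.60 for PDGFRB (adjusted p = 3.27e-05) to -1.33 for LUM (adjusted p = 4.10e-09), with a median of 0.002. The part of these markers in the results was not tested. One library stood apart: in replicate 2 of fNSF-HA after tBHP, the fifth of genes richest in GC (median GC content 61.5%) lay 0.629 below its level over all libraries on the log2 scale, and the fifth poorest in GC lay 0.427 above it.

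The iron-responsive hairpin is the feature by which iron sets mRNAs to work. Of the 10 genes, 4 matched a strict motif of this hairpin, and the matching sequences are shown. The search used the letters CNNNNNCAGTGN, read on the mRNA strand and followed by 5 bases that can pair with the 5 before the loop, with G-T pairs allowed. Both UTRs of every transcript in GENCODE release 29 (GRCh38) were searched. The lines run 5′ to 3′, with the 6 bases of the loop in capitals.
FTH1, 5′ UTR, minus strand, chr11:61967574-61967602: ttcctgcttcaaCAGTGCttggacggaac
FTL, 5′ UTR, plus strand, chr19:48965335-48965363: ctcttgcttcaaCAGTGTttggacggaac
SLC40A1, 5′ UTR, minus strand, chr2:189580661-189580689: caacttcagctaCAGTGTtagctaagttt
TFRC, 3′ UTR, minus strand, chr3:196050979-196051007: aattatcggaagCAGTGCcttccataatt
TFRC, 3′ UTR, minus strand, chr3:196050575-196050603: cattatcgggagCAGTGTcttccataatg
TFRC, 3′ UTR, minus strand, chr3:196050510-196050538: ctgtatcggagaCAGTGAtctccatatgt
TFRC, 3′ UTR, minus strand, chr3:196050463-196050491: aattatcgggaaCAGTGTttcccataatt
The motif occurred in 202 of the 20175 coding genes with an annotated UTR, which is 1% of them, and in 4 of the 10 genes here, at 7 sites. The hairpins of FTH1 and FTL lie near the start of the message, where a bound protein blocks translation, and those of TFRC lie behind the coding sequence, where bound proteins protect the mRNA from decay. These letters were not found in the UTRs of SLC11A2. The search misses hairpins with an unpaired base in the stem beside the loop, so genes without a match may still carry one. The RNA-seq values measure mRNA levels only and hold no reading of translation.

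The level of the 10 genes spanned a wide range before any stress. Levels of different genes were compared per kilobase of merged exons. In PBS cells FTL was highest at 21343 ± 438 normalized counts per kb (SD, n = 3), followed by FTH1 at 11625 ± 252, HMOX1 at 2450 ± 94.5 and TFRC at 749 ± 12.7. The biliverdin reductases followed, with BLVRA at 299 ± 14.7 and BLVRB at 231 ± 4.21 normalized counts per kb. FECH, at 133 ± 3.46, and HMOX2, at 120 ± 3.55, came next. SLC11A2 lay at 79.5 ± 3.99 normalized counts per kb and SLC40A1 at 4.13 ± 0.817. Each gene in this order stood clear of its neighbours in the PBS libraries, but FECH and HMOX2 overlapped in the cNSF-HA libraries. After tBHP the top of the order was the same, while the mean of BLVRB lay above that of BLVRA in all 3 groups, with overlapping libraries in each.

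The inducible heme oxygenase and both ferritin chains rose most of the 10 genes after tBHP. HMOX1 rose 7.78-fold in PBS cells, FTL 3.13-fold and FTH1 2.89-fold, and each of them rose in all 3 pre-incubations. BLVRB and FECH rose less, SLC11A2 and HMOX2 fell, and BLVRA, TFRC and SLC40A1 did not pass the test. The same 7 genes, 5 higher and 2 lower, passed limma with an adjusted p under 0.05 with PBS, cNSF-HA and fNSF-HA. Of all 13686 genes tested, 51.1% passed with PBS (24.2% higher and 26.9% lower), 50.8% with cNSF-HA (24.0% and 26.8%) and 41.9% with fNSF-HA (19.2% and 22.7%), which is the background for 7 of 10. The size of the rise was less common: HMOX1 ranked 28, 26 and 27 among the rises of all genes tested, FTL 147, 117 and 141, and FTH1 177, 141 and 161, in the order PBS, cNSF-HA and fNSF-HA. The median log2 change of the 10 genes was 0.22, 0.20 and 0.29 in the same order, against 0.0043, -0.0005 and -0.03 over all genes.

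**Figure D1:**
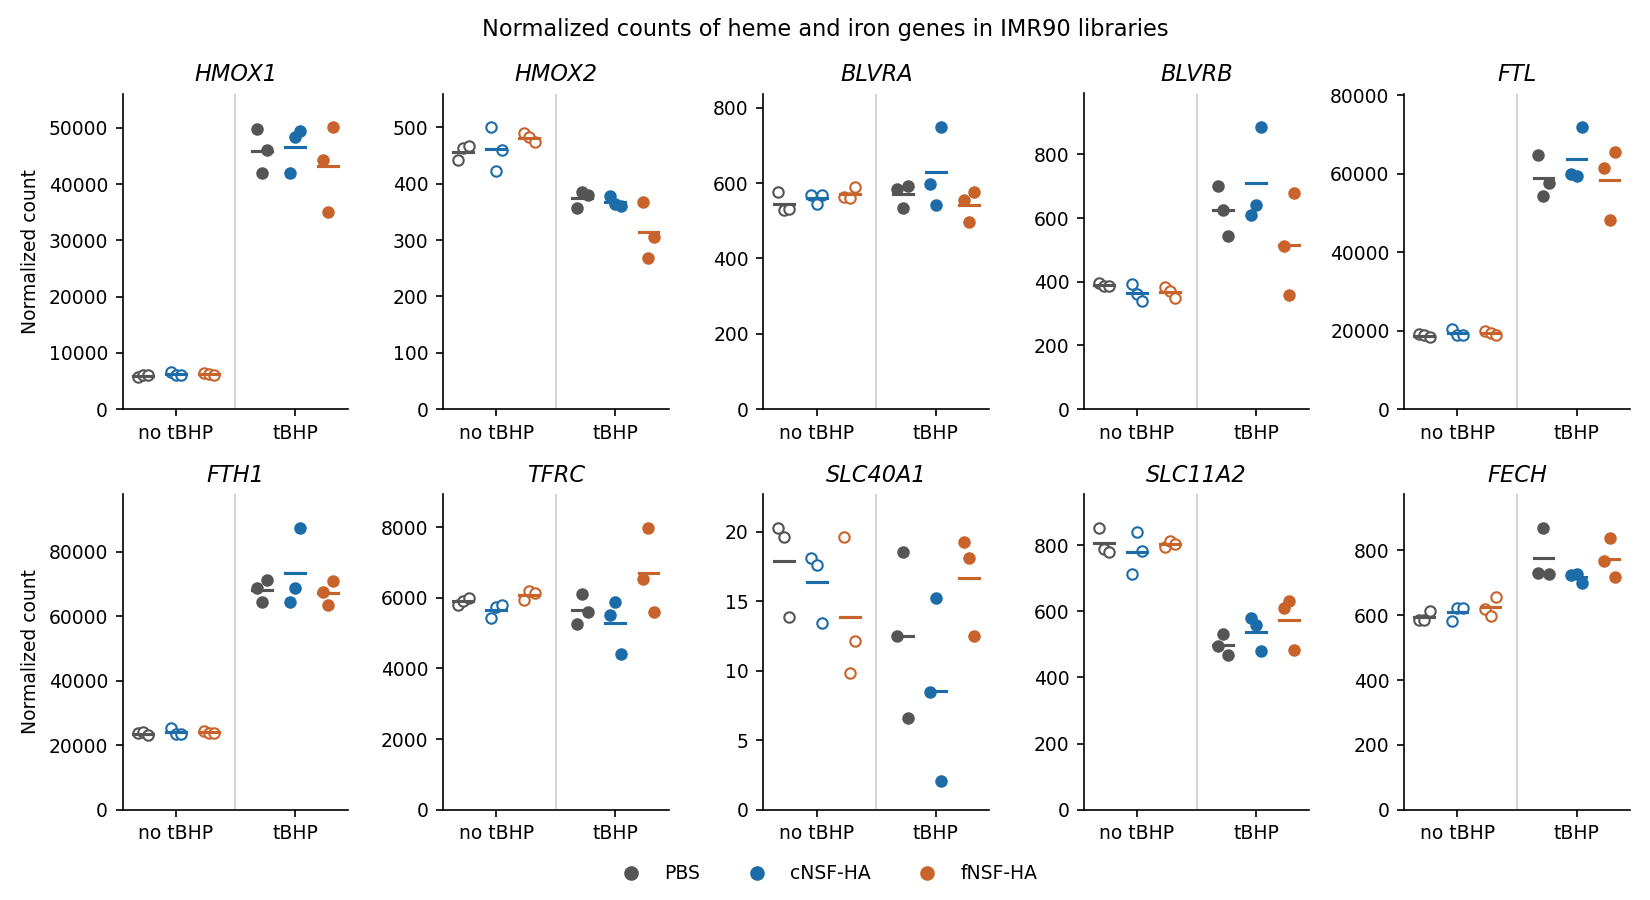
Normalized counts of the 10 genes in each of the 18 libraries, on linear axes that start at 0; open points are libraries without tBHP, filled points libraries after tBHP, colours give the pre-incubation and short lines the mean of 3 libraries. HMOX1, FTL and FTH1 lie far higher in all 9 libraries after tBHP, HMOX2 and SLC11A2 lie lower, and TFRC overlaps.

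HMOX1 (chr22:35380361-35394214, plus strand), the inducible heme oxygenase, was the gene that moved most. The PBS libraries held 5631, 5999.9 and 6046 normalized counts without tBHP and 49750.1, 41987 and 46141 after it. The cNSF-HA libraries went from 6587, 6024 and 6019 to 42066, 48357 and 49429.9. The fNSF-HA libraries went from 6348, 6208 and 6052 to 44365, 35061 and 50107. Every library after tBHP lay above every library without it, and the lowest of the exposed libraries was replicate 2 of fNSF-HA. Its log2 change came to 2.96 in PBS cells (95% interval 2.75 to 3.17, adjusted p = 3.26e-13 by limma), 2.91 with cNSF-HA (2.69 to 3.12, adjusted p = 3.88e-13) and 2.78 with fNSF-HA (2.57 to 3.00, adjusted p = 6.37e-13). Without replicate 2 of fNSF-HA after tBHP, the library with the largest GC shift, the change with fNSF-HA was 2.93. By mean normalized count HMOX1 moved from rank 584 of all genes to rank 38.

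HMOX2 (chr16:4474690-4510347, plus strand), the heme oxygenase that cells hold at a steady level, went the other way. Without tBHP its libraries held 441, 463 and 466 normalized counts with PBS, 499.99, 423 and 459 with cNSF-HA and 489, 483 and 473 with fNSF-HA. After tBHP they held 357, 385 and 381, then 377, 364 and 361, then 368, 268 and 305 in the same order. All 9 exposed libraries lay below all 9 unexposed ones. On the log2 scale the change was -0.29 in PBS cells (SE 0.0983, adjusted p = 0.0216), -0.32 with cNSF-HA (adjusted p = 0.0109) and -0.63 with fNSF-HA (adjusted p = 5.44e-05). The call in PBS cells was lost in edgeR (adjusted p = 0.0586) and without PBS replicate 2, PBS replicate 3 or replicate 1 of PBS after tBHP, and that with cNSF-HA without cNSF-HA replicate 1. With the GC and length trend removed the fall was larger, at -0.51, -0.58 and -0.76 with PBS, cNSF-HA and fNSF-HA (adjusted p = 3.87e-05, 9.45e-06 and 1.90e-07). HMOX2 shares 228 bases of exon with NMRAL1 on the opposite strand, and the kit does not mark strand. NMRAL1 held 112 to 138 normalized counts without tBHP and 84.0 to 155 after it. Per kb, HMOX1 exceeded HMOX2 by 20.3 ± 0.188-fold (SD, n = 3) in PBS cells and by 194 ± 24.0-fold in PBS cells after tBHP. After tBHP this ratio was 200.4 ± 21.6 with cNSF-HA and 218 ± 36.0 with fNSF-HA.

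The biliverdin reductases, which act after heme oxygenase, split. BLVRA (chr7:43758680-43807342, plus strand) is the main form in adult tissue and BLVRB (chr19:40447765-40465840, minus strand) also works as a flavin reductase. BLVRB held 398, 385 and 386 normalized counts in PBS cells, and 702, 627 and 544 in PBS cells after tBHP. In cNSF-HA cells it went from 392, 361 and 341 to 610.3, 640.2 and 885, and with fNSF-HA from 384, 372 and 350.3 to 512, 358 and 679. The exposed libraries lay above the unexposed ones in PBS and cNSF-HA cells, whereas replicate 2 of fNSF-HA after tBHP fell among the unexposed. The change on the log2 scale was 0.67 in PBS cells (SE 0.173, adjusted p = 0.00351), 0.95 with cNSF-HA (adjusted p = 0.000207) and 0.44 with fNSF-HA (adjusted p = 0.0496). The last call was lost when every gene with a read was tested (adjusted p = 0.0894), in a fit of only the groups compared (adjusted p = 0.163) and without any 1 of the fNSF-HA libraries except replicate 2 after tBHP. Its value there ran from 0.22 without replicate 3 after tBHP to 0.68 without replicate 2 after tBHP. Once the dependence of each library on the GC content and the length of transcripts was removed, BLVRB rose by 0.31, 0.48 and 0.29 on the log2 scale with PBS, cNSF-HA and fNSF-HA, past the threshold in all 3.

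BLVRA held 528 to 589 normalized counts in the 9 libraries without tBHP (median 563) and 497 to 748 in the 9 after it (median 577). The libraries overlapped in every pre-incubation, and its log2 changes of 0.07, 0.15 and -0.08 did not pass the test (adjusted p = 0.601, 0.205 and 0.577). It was called with cNSF-HA without replicate 2 of cNSF-HA after tBHP, at 0.25 (adjusted p = 0.0458). With the GC trend removed the change was -0.07 and -0.04 in PBS and cNSF-HA cells and -0.24 with fNSF-HA (adjusted p = 0.00793). Per kb, BLVRA exceeded BLVRB by 1.30 ± 0.0398-fold in PBS cells (SD, n = 3), and by 1.43 ± 0.105-fold with cNSF-HA and 1.44 ± 0.105-fold with fNSF-HA. After tBHP the ratio was 0.857 ± 0.134 with PBS, 0.827 ± 0.0721 with cNSF-HA and 1.03 ± 0.249 with fNSF-HA, where BLVRA stayed the higher in replicates 1 and 2.

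**Figure D2:**
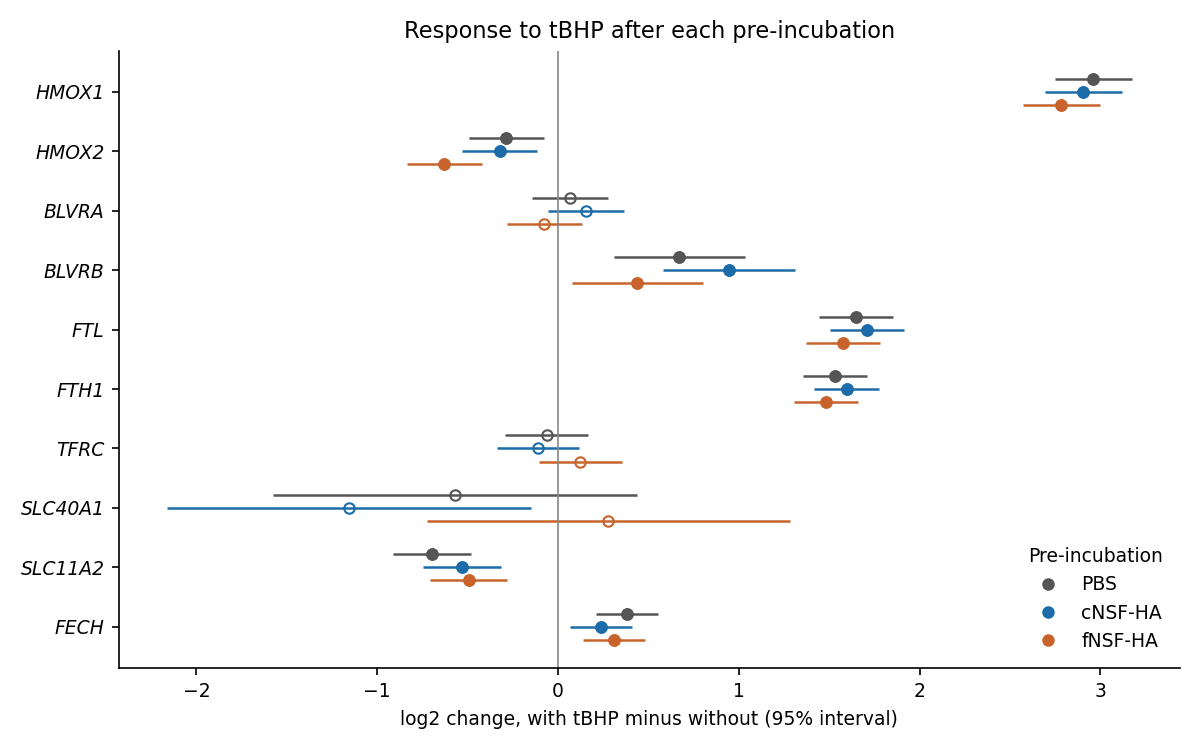
Log2 change of each gene from libraries without to libraries with tBHP (x axis) in cells pre-incubated with PBS, cNSF-HA or fNSF-HA, with 95% intervals from limma; filled points passed an adjusted p of 0.05. HMOX1 lies at 2.96, 2.91 and 2.78, FTL and FTH1 between 1.48 and 1.71, and the intervals of the 3 pre-incubations overlap for each gene.

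The ferritin chains rose together. FTL (chr19:48965301-48966878, plus strand) encodes the light chain, which helps the iron core form. It held 19078, 18818 and 18321 normalized counts in PBS cells and 64732, 54323 and 57600.1 in PBS cells after tBHP. In cNSF-HA cells it went from 20360.4, 18969 and 18921 to 60076, 59402 and 71852, and with fNSF-HA from 19906, 19428 and 18918 to 61499, 48237 and 65509. The lowest exposed library, again replicate 2 of fNSF-HA, was still well above the highest unexposed one. The log2 change was 1.65 (SE 0.0970) with PBS, 1.71 with cNSF-HA and 1.58 with fNSF-HA, with adjusted p values of 3.32e-10, 2.16e-10 and 6.88e-10. The last of these changes was 1.71 without replicate 2 of fNSF-HA after tBHP.

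FTH1 (chr11:61959718-61967660, minus strand) encodes the heavy chain, the ferroxidase that turns ferrous into ferric iron. It held 23743, 24023 and 23031 normalized counts in PBS cells, and 68794, 64598 and 71220.0 in PBS cells after tBHP. The cNSF-HA libraries went from 25213, 23598 and 23638 to 64498, 68810.1 and 87476, and the fNSF-HA libraries from 24377, 23933 and 23853 to 67410.1, 63373 and 71112. All exposed libraries lay above all unexposed ones, and replicate 3 of cNSF-HA after tBHP was the highest. Its log2 change came to 1.53 (SE 0.0845), 1.60 and 1.48 with PBS, cNSF-HA and fNSF-HA, with adjusted p values of 1.36e-10, 8.80e-11 and 2.44e-10. The exons of FTH1 overlap those of BEST1 on the opposite strand over 1267 bases. BEST1 held 14.8 to 181 normalized counts without tBHP and 34.0 to 59.2 after it.

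The balance of the chains stayed close to its starting point. Per kb, FTH1 stood at 0.545 ± 0.00699 of FTL in PBS cells (SD, n = 3), 0.538 ± 0.00237 with cNSF-HA and 0.536 ± 0.00830 with fNSF-HA. After tBHP it stood at 0.503 ± 0.0388, 0.497 ± 0.0313 and 0.504 ± 0.0557. Together the ferritin chains took 0.188% to 0.206% of all reads without tBHP and 0.498% to 0.699% after it, and HMOX1 went from 0.0255% to 0.0298% up to 0.156% to 0.217%. FTL moved from rank 115 to rank 27 among all genes by mean normalized count, and FTH1 from rank 77 to rank 23. Both genes have many processed copies in the genome, which could take some of their reads. The table held 41 ferritin pseudogene rows, of which 9 to 16 had reads in a library. They added up to 35.2 to 57.9 normalized counts without tBHP and 83.2 to 148 after it, or 0.0646% to 0.140% of FTH1 and FTL together. The largest by mean were FTH1P2 at 17.8, FTH1P8 at 16.3 and FTLP3 at 14.2 normalized counts. How the counting treated reads that match several places is not given in the sources used here.

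TFRC (chr3:196027183-196082189, minus strand), the transferrin receptor that brings iron into the cell, did not pass the test in any pre-incubation. It held 5804, 5912 and 6005 normalized counts in PBS cells, and 5271, 6119.7 and 5598 in PBS cells after tBHP. The cNSF-HA libraries went from 5436, 5740.4 and 5803 to 5527, 5887 and 4424, and the fNSF-HA libraries from 5944, 6181 and 6145 to 6535, 7985 and 5600.1. The groups overlapped in each pre-incubation, and the exposed libraries were more widely spread than the unexposed ones. On the log2 scale the change was -0.06 (95% interval -0.29 to 0.16, adjusted p = 0.649) in PBS cells, -0.11 (-0.34 to 0.12, adjusted p = 0.410) with cNSF-HA and 0.12 (-0.10 to 0.35, adjusted p = 0.383) with fNSF-HA.

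The call for TFRC changed once the GC trend was removed. TFRC transcripts are poor in GC, at 41.8%. With the GC and length trend of each library removed, TFRC was higher after tBHP by 0.24 with PBS, 0.22 with cNSF-HA and 0.29 with fNSF-HA on the log2 scale, with adjusted p values of 0.000143, 0.000414 and 1.85e-05, in a setting where 56.4%, 55.8% and 55.4% of all genes passed. So the direction turned in PBS and cNSF-HA cells, and the call changed in all 3 groups. The same correction left a rise of 6.21-, 5.65- and 6.25-fold for HMOX1, of 1.37, 1.32 and 1.37 on the log2 scale for FTL and of 2.47-, 2.48- and 2.47-fold for FTH1, all past the threshold. Per kb, FTH1 exceeded TFRC by 15.5 ± 0.545-fold in PBS cells (SD, n = 3) and by 47.0 ± 5.27-fold in PBS cells after tBHP.

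Of the iron transporters SLC11A2 and SLC40A1, the first fell in each pre-incubation and the second did not pass the test. SLC11A2 (chr12:50979401-51028566, minus strand) encodes DMT1, which carries ferrous iron into the cell and out of endosomes. It held 713 to 853 normalized counts in the 9 libraries without tBHP (median 794) and 467 to 632 in the 9 after it (median 530.2). No exposed library reached the lowest unexposed one. The change on the log2 scale was -0.70 (SE 0.102, adjusted p = 2.03e-05) in PBS cells, -0.53 (adjusted p = 0.000322) with cNSF-HA and -0.49 (adjusted p = 0.000767) with fNSF-HA. With the GC and length trend removed, the fall with cNSF-HA was -0.35 (adjusted p = 0.000116).

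SLC40A1 (chr2:189560579-189583758, minus strand) encodes ferroportin, the iron exporter. It was near the floor of detection, with 2 to 22 reads in a library. The PBS libraries held 20.3, 19.6 and 13.8 normalized counts without tBHP and 12.5, 18.5 and 6.56 after it. The cNSF-HA libraries went from 18.1, 17.6 and 13.4 to 8.43, 15.2 and 2.03, and the fNSF-HA libraries from 19.6, 9.85 and 12.1 to 19.3, 18.1 and 12.5. The groups overlapped throughout. The log2 changes of -0.57, -1.16 and 0.28 had a standard error of 0.478 and did not pass the test (adjusted p = 0.336, 0.0519 and 0.676). In cNSF-HA cells it passed without replicate 2 of cNSF-HA after tBHP, at -1.69 (adjusted p = 0.00729). It also passed with the GC trend removed (adjusted p = 0.0432) and with the replicate number added to the limma fit (adjusted p = 0.0198). Without replicate 3 of cNSF-HA after tBHP, the lowest library, the change was -0.48 (adjusted p = 0.349).

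FECH (chr18:57548283-57586772, minus strand), ferrochelatase, closes heme synthesis by placing iron in the ring. It held 582 to 657 normalized counts in the 9 libraries without tBHP (median 612) and 699 to 869.9 in the 9 after it (median 728). The sets of libraries did not overlap, and the rise was small. The log2 change was 0.38 (SE 0.0819, adjusted p = 0.000871) in PBS cells, 0.24 (adjusted p = 0.0226) with cNSF-HA and 0.31 (adjusted p = 0.00537) with fNSF-HA. In cNSF-HA cells the call was lost without cNSF-HA replicate 1 or without replicate 1 or 2 of cNSF-HA after tBHP, with values of 0.20 to 0.23. Counted within each pre-incubation, 7, 7 and 6 of the 10 genes had no overlap between exposed and unexposed libraries, against 63.8%, 63.7% and 48.7% of all genes tested.

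Other genes of the same pathways, in lists written by hand, put these values in context. Of the 12 other NRF2 targets, 11 rose and none fell with PBS, 11 rose with cNSF-HA and 12 with fNSF-HA, beside 24.2%, 24.0% and 19.2% of all genes. OSGIN1, an oxidative stress gene, rose by 3.20 on the log2 scale in PBS cells (adjusted p = 1.00e-10), and SLC7A11, the cystine carrier that feeds glutathione synthesis, rose by 2.67 (adjusted p = 2.29e-10). SRXN1, which repairs peroxiredoxins, rose by 2.35 in PBS cells (adjusted p = 2.08e-06), from 8.78 to 47.6 normalized counts, and changed by 0.67 with cNSF-HA (adjusted p = 0.0546) and 0.86 with fNSF-HA (adjusted p = 0.0191). The median log2 change of this list in PBS cells was 0.98.

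Of the 7 genes that control heme oxygenase, 5 rose and 1 fell in PBS and cNSF-HA cells, and 4 rose with fNSF-HA. Over all genes 24.2%, 24.0% and 19.2% rose and 26.9%, 26.8% and 22.7% fell with PBS, cNSF-HA and fNSF-HA, and the counts of this and the next lists stand beside these shares. The small MAF proteins, partners of NRF2 at its binding sites, were among them: in PBS cells MAFG rose by 1.46 (adjusted p = 1.36e-10) and MAFF by 0.88 (adjusted p = 2.40e-07). KEAP1, which holds NRF2 back, rose by 0.78 (adjusted p = 4.26e-05), and BACH1, the heme-sensing repressor of HMOX1, changed by -0.12 (adjusted p = 0.475).

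Of the 6 genes of iron storage and ferritin turnover that were tested, FTL and FTH1 were the ones that rose in each pre-incubation, and 2, 1 and 0 fell with PBS, cNSF-HA and fNSF-HA. NCOA4, which leads ferritin to autophagy, fell by 0.26 in PBS cells (adjusted p = 0.00984). Of 9 iron-responsive control genes, 4 rose and 4 fell in PBS and cNSF-HA cells, and 3 rose and 3 fell with fNSF-HA, where 51.1%, 50.8% and 41.9% of all genes changed in either direction with PBS, cNSF-HA and fNSF-HA. BMP6, the ligand that raises hepcidin in liver, rose by 2.82 in PBS cells (adjusted p = 3.81e-09), from 33.3 to 240.2 normalized counts. FBXL5, the iron sensor that marks IRP2 for destruction, fell by 0.69 (adjusted p = 9.64e-07).

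The lists of iron and heme transport held rises and falls. Of 9 genes of iron uptake, transport and release, the numbers that rose were 2, 1 and 2 with PBS, cNSF-HA and fNSF-HA, and 2 fell each time. SLC25A28, a mitochondrial iron importer, rose by 0.71 in PBS cells (adjusted p = 8.89e-06), and SLC25A37, its close relative, fell by 0.27 (adjusted p = 0.00646). Of 8 heme transport and binding genes, 2, 3 and 4 rose and 1, 2 and 1 fell with PBS, cNSF-HA and fNSF-HA. In PBS cells FLVCR1, a heme exporter of the cell surface, fell by 0.68 (adjusted p = 0.00110). SLC48A1, which moves heme out of lysosomes, rose by 0.68 (adjusted p = 0.000239), and SLC25A38, the glycine carrier that feeds heme synthesis, rose by 0.55 (adjusted p = 4.46e-05). Of 8 heme synthesis genes, 2, 3 and 2 rose and 0, 1 and 1 fell in the same order. In PBS cells the rises were those of FECH and of ALAS1, the first and rate-limiting enzyme, which rose by 0.52 (adjusted p = 1.19e-06).

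**Figure D3:**
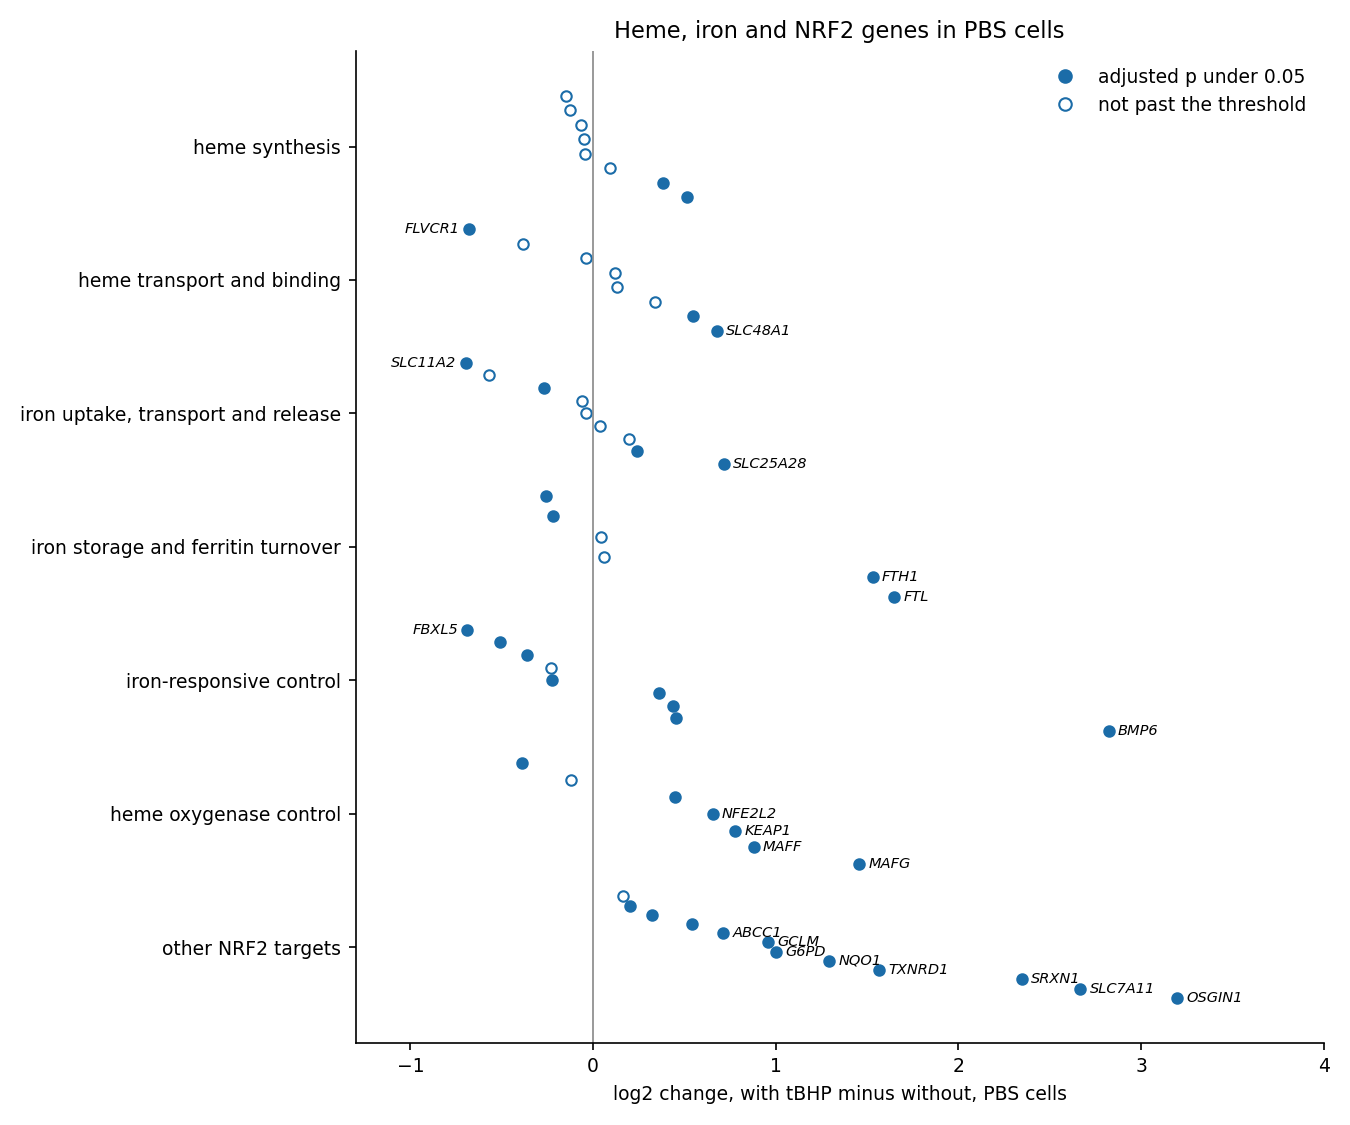
Log2 change after tBHP in PBS cells (x axis) for the genes of 7 hand-written lists, the 10 genes described here included where a list holds them; filled points passed an adjusted p of 0.05, and genes that changed by over 0.6 are named. Other NRF2 targets lie to the right, with a median of 0.98, while the iron and heme lists hold points on both sides of 0.

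The next question was whether HA, intact or fragmented, altered these genes. Without tBHP the fit over all 18 libraries found no difference. None of the 10 genes passed limma in cNSF-HA or fNSF-HA cells against PBS or against each other. None had an unadjusted p under 0.05, and all adjusted p were 1. This fit shares a single spread per gene over exposed and unexposed libraries, whose median SD was 0.206 and 0.0761. Differences between unexposed groups are thus tested against a spread wider than their own for a typical gene, which makes small ones hard to detect. Over all genes, 0.921% had an unadjusted p under 0.05 between cNSF-HA and PBS, 0.796% between fNSF-HA and PBS and 1.51% between cNSF-HA and fNSF-HA. Of all genes tested, 0% passed in each of these comparisons, and edgeR and DESeq2 called none of the 10 either. Leaving out SLC40A1, the 27 log2 differences lay between -0.11 and 0.08. HMOX1 was higher in all fNSF-HA libraries than in all PBS libraries, a difference of 0.07 (adjusted p = 1.00), as was HMOX2, while BLVRB was lower. Such gaps between groups occurred for 14.0% of all genes tested in that comparison. TFRC lay lower in all cNSF-HA libraries than in the PBS and the fNSF-HA libraries, where 15.2% and 25.0% of all genes had such gaps. It passed against fNSF-HA in a fit of only these groups, at -0.11 (adjusted p = 0.0211), where 7.16% of all genes passed.

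After tBHP, the HA groups were compared with PBS and with each other. These comparisons share the exposed PBS or HA libraries, so their values are given side by side. HMOX1 differed by 0.02 between cNSF-HA and PBS, by -0.10 between fNSF-HA and PBS and by 0.12 between cNSF-HA and fNSF-HA on the log2 scale (SE 0.101, adjusted p = 0.960, 0.543 and 0.395). FTL differed by 0.11, -0.02 and 0.13 (adjusted p = 0.736, 0.918 and 0.335), and FTH1 by 0.10, -0.02 and 0.12 (adjusted p = 0.739, 0.907 and 0.327) in the same order. With the GC and length trend removed these values became -0.10, 0.11 and -0.21 for HMOX1, -0.02, 0.08 and -0.10 for FTL and 0.02, 0.03 and -0.01 for FTH1. The direction thus turned in all 3 comparisons for HMOX1 and FTL and in the last 2 for FTH1. No value was past the threshold, the largest being HMOX1 between cNSF-HA and fNSF-HA (SE 0.0558, adjusted p = 0.141 by limma). None of the 10 genes passed limma in any of the comparisons, and none had libraries without overlap, a state found for 9.57%, 12.0% and 13.4% of all genes in the same order. Of all genes tested, 0% passed between cNSF-HA and PBS, 0.139% between fNSF-HA and PBS (0.117% higher and 0.0219% lower), and 0% between cNSF-HA and fNSF-HA.

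By unadjusted p on the deposited scaling, TFRC and BLVRB led the differences between the HA preparations after tBHP, and they went opposite ways. TFRC was lower with cNSF-HA, at -0.34 on the log2 scale (SE 0.108, unadjusted p = 0.00557, adjusted p = 0.0981 by limma). BLVRB was higher with cNSF-HA, at 0.49 (SE 0.173, unadjusted p = 0.0109, adjusted p = 0.0981 by limma). HMOX2, at 0.24, and SLC40A1, at -1.17, also had an unadjusted p under 0.05 in limma, with adjusted p values of 0.115 and 0.114, as did 32.2% of all genes tested. By unadjusted p under 0.05, HMOX2 (-0.27, adjusted p = 0.154) and TFRC (0.23, adjusted p = 0.215) were past it between fNSF-HA and PBS in limma, as were 22.7% of all genes, and none of the 10 between cNSF-HA and PBS, where 8.64% were. With a library left out, those between fNSF-HA and PBS ran from -0.39 to -0.16 for HMOX2 and from 0.10 to 0.35 for TFRC. The smallest came without replicate 2 of fNSF-HA after tBHP. With the GC and length trend removed the values were -0.16 for HMOX2 and 0.07 for TFRC. In that setting 0 of the 10 genes had an unadjusted p under 0.05 between fNSF-HA and PBS. Between cNSF-HA and PBS there was 1, with SLC11A2 at 0.21 (SE 0.0674, adjusted p = 0.169 by limma). By DESeq2 on the recovered reads, TFRC passed between cNSF-HA and fNSF-HA (-0.34, adjusted p = 0.0454), as did 6.74% of all genes, while SLC40A1 was given no adjusted p and the other 8 genes did not pass, and edgeR called none of the 10.

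These values moved with single libraries. BLVRB was lowest of the exposed libraries, at 358, in replicate 2 of fNSF-HA, and highest, at 885, in replicate 3 of cNSF-HA. TFRC was highest, at 7985, and lowest, at 4424, in the same libraries. BLVRB transcripts are rich in GC, at 61.3%, and TFRC transcripts poor. In those libraries the fifth of genes richest in GC lay -0.629 and 0.258 from its level over the libraries after tBHP. The first was the lowest value among them, and the second was close to the highest, 0.261 in replicate 1 of PBS after tBHP. With the GC and length trend of each library removed, the difference between cNSF-HA and fNSF-HA was 0.09 for BLVRB (adjusted p = 0.565) and 0.07 for HMOX2 (adjusted p = 0.715). It was -0.11 for TFRC (adjusted p = 0.259) and -1.06 for SLC40A1 (adjusted p = 0.251). In this setting 5 of the 10 genes had an unadjusted p under 0.05 in limma, HMOX1 among them, against 4 on the deposited scaling. Without replicate 3 of fNSF-HA after tBHP, BLVRB and TFRC passed between the HA preparations, at 0.71 (adjusted p = 0.00258) and -0.46 (adjusted p = 0.00276), as did 40.8% of all genes. Without replicate 2 of fNSF-HA after tBHP the differences were smaller, at 0.25 for BLVRB, -0.21 for TFRC and 0.13 for HMOX2, and without replicate 3 of cNSF-HA after tBHP they were 0.32 for BLVRB, -0.22 for TFRC and -0.49 for SLC40A1, none of them past the threshold. HMOX2 came to 0.36 without replicate 1 of fNSF-HA after tBHP. Without replicate 3 of fNSF-HA after tBHP, SLC11A2 (0.32), BLVRB (-0.53) and TFRC (0.35) also passed between fNSF-HA and PBS, with adjusted p values of 0.0182, 0.0158 and 0.0157, and so did 29.4% of all genes. The 10 genes thus passed 2 and 3 times, near or below the background.

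**Figure D4:**
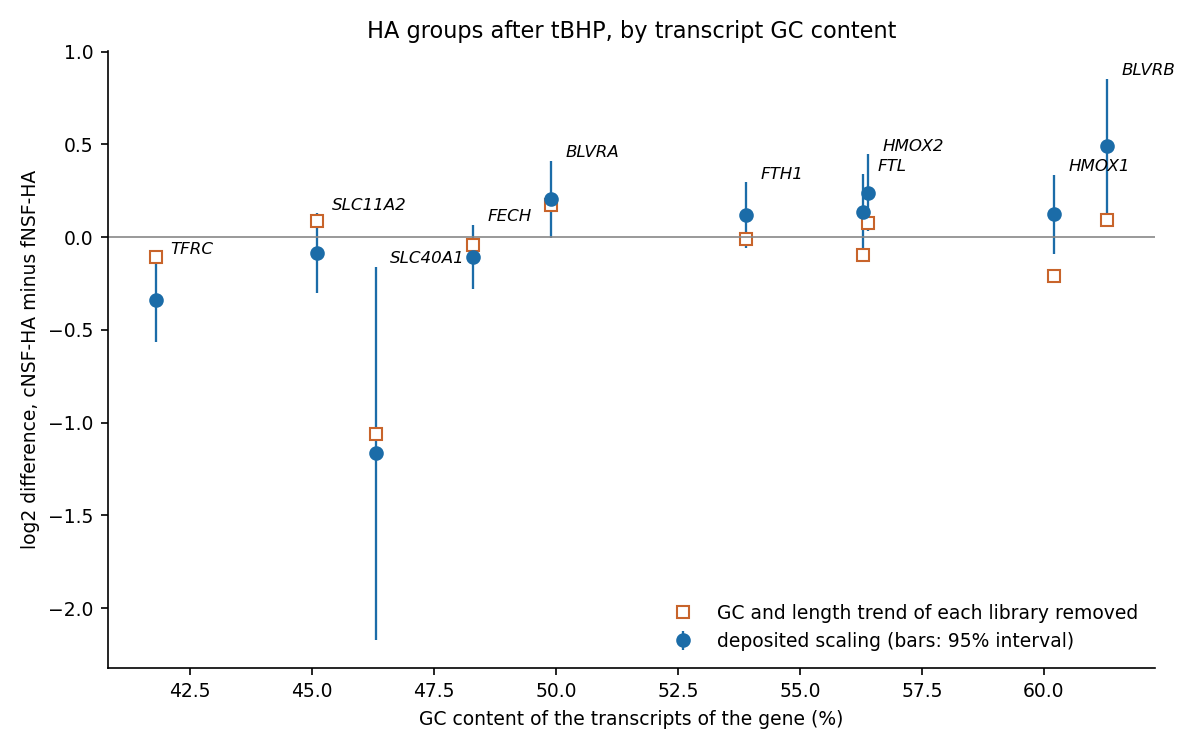
Log2 difference of cNSF-HA minus fNSF-HA in exposed cells (y axis) against the GC content of the transcripts of each gene (x axis, percent); circles with 95% intervals are the values on the deposited scaling, open squares those after the GC and length trend of each library was removed. BLVRB moves from 0.49 to 0.09 and TFRC from -0.34 to -0.11, while SLC40A1, with few reads, moves from -1.17 to -1.06.

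The response to tBHP itself was then compared between pre-incubations as an interaction. For HMOX1 the response differed by -0.05 between cNSF-HA and PBS (95% interval -0.35 to 0.24), by -0.18 between fNSF-HA and PBS (-0.48 to 0.12) and by 0.12 between cNSF-HA and fNSF-HA (-0.18 to 0.42). As ratios of the rise, these intervals run from 0.783 to 1.18, from 0.719 to 1.09 and from 0.885 to 1.34. For FTL the differences were 0.06 (-0.23 to 0.35), -0.07 (-0.36 to 0.22) and 0.13 (-0.15 to 0.42), and for FTH1 they were 0.07 (-0.19 to 0.32), -0.05 (-0.30 to 0.20) and 0.11 (-0.14 to 0.36). No difference of response passed limma for any of the 10 genes, with 0% of all genes passing, the smallest adjusted p being 0.667. By unadjusted p under 0.05, 0 of the 10 genes differed in the first of these comparisons, 1 in the second (HMOX2, -0.34) and 2 in the third (HMOX2, 0.31, and SLC40A1, -1.43), against 4.06%, 6.88% and 3.89% of all genes. With the GC and length trend removed, the differences for HMOX2 were -0.24 and 0.18, and none of the 10 genes had an unadjusted p under 0.05 in the second comparison. The third for SLC40A1 ran from -1.97 to -0.76 with a library left out. Whether the fall of HMOX2 differed between pre-incubations was therefore not settled by these libraries: the interval for fNSF-HA against PBS was -0.64 to -0.05 before adjustment for many genes.

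The pattern of HMOX1 over the 18 libraries was shared by many genes. Among 10313 genes with a mean normalized count of at least 100, the 5 with the highest Pearson r of log2 values with HMOX1 were TRIB3 and CDKN1A, each at 0.999, and SESN2, DDIT4 and AARS. FTL ranked 16, at 0.997, and FTH1 ranked 31, at 0.995, while BLVRB stood at 0.848, FECH at 0.856 and SLC11A2 at -0.945. TFRC was most like ZNF281 (0.969), RICTOR (0.962), UBQLN1 (0.961), SLC31A1 (0.955) and ATP6V1A (0.951), and its r with HMOX1 was -0.114. These points fall into exposed and unexposed libraries, and the genes of a library share its depth and its GC trend, so r is given as a description only.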

How the data were processed

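RNA of IMR90 cells (6 groups, 3 replicates each) was sequenced by the authors as single-end reads of 100 nt after poly(A) selection with an unstranded kit. The submitters' processing notes name Trimmomatic 0.32, STAR 2.5.2b, featureCounts of Subread 1.5.0-p3, DESeq2 and build GRCh38.p7. The annotation used and the strand setting are not given in the sources used here. The deposited signal is the normalized count, reads divided by a size factor, and 100% of values were whole reads within 0.01 once rescaled. Columns of the authors' own comparison (a p-value, a q-value and a ranking, 3 in all) were not used.

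Groups came from the labels. Genes with a mean of at least 10 were tested on log2(value + 1) with limma 3.58.1 in R 4.3.3, 1 coefficient per group over all 18 libraries, mean-variance trend, two-sided, Benjamini-Hochberg adjustment, threshold 0.05. Fold changes are therefore on the log2(value + 1) scale, which understates those of low genes. Intervals are 95%. Fits on recovered reads used edgeR 4.0.16 (quasi-likelihood, TMM) and DESeq2 1.42.0. The steps were run on simulated data with the same dispersion in every group and far fewer changed genes than here. That run therefore does not cover the wider spread after tBHP. Annotation came from GENCODE release 29. Chi-square per degree of freedom between replicates was 1.45 to 2.55 without tBHP and 2.72 to 64.8 after it, so no library was a copy of another of its group. The 10 genes, the gene lists and the tests were chosen with earlier results of these data known. Genes named from a list are its 3 largest changes past the threshold in PBS cells, besides HMOX1-like and TFRC-like genes (5 highest r each) and the largest ferritin pseudogenes; BACH1 was named after its value was seen, and some genes these rules name are not reported here.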

Additional observations from a re-analysis of the deposited data

How the results depend on the processing

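The alternatives were pseudocounts of 0.1 and 5, no filter, a minimum mean of 50, a rescaling to equal medians, quantile normalization, edgeR, DESeq2, the replicate block, a fit of only the groups compared, removal of the GC and length trend (12503 genes with an annotation, 91.4%) and each library left out in turn. Over these, 218 counts of genes past the threshold stayed within 1.5 times the reported count and 4 moved. Of the log2 differences of the tBHP responses and of those named between HA groups after tBHP, 970 kept direction and side of the threshold, 15 lost their call, 10 gained one and 41 reversed. HMOX1, FTL, FTH1 and SLC11A2 kept their tBHP call under every alternative and in every pre-incubation.

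Between cNSF-HA and fNSF-HA, 1 gene passed without tBHP in the fit of only the groups compared, and 1 after tBHP in DESeq2, each TFRC. With a library left out, 0 to 3 genes passed between fNSF-HA and PBS after tBHP and 0 to 2 between cNSF-HA and fNSF-HA after tBHP, the highest in both cases without replicate 3 of fNSF-HA after tBHP. Over all genes, limma called 0 between cNSF-HA and fNSF-HA after tBHP, edgeR 0 and DESeq2 923 (302 higher, 621 lower), and between fNSF-HA and PBS after tBHP 19, 36 and 442. The cause was not tested.

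Reversed tBHP responses were those of genes near 0. With the GC trend removed, BLVRA went to -0.0706 in PBS and -0.0387 in cNSF-HA cells, and TFRC to 0.24 and 0.22. TFRC in PBS cells was 0.0031 in edgeR. With a library left out TFRC ran from -0.19 to 0.0117 in cNSF-HA and from -0.0093 to 0.25 in fNSF-HA cells. Among the differences between responses, with the GC trend removed, FTL for cNSF-HA minus PBS was -0.0447, HMOX1, FTL and FTH1 for fNSF-HA minus PBS were 0.0081, 0.0076 and 0.0013, and HMOX1 and FTL for cNSF-HA minus fNSF-HA were -0.15 and -0.0523. FTH1 for cNSF-HA minus PBS was -0.009 under quantile normalization. With a library left out, cNSF-HA minus PBS ran from -0.12 to 0.0175 for HMOX1, -0.026 to 0.13 for FTL and -0.0656 to 0.15 for FTH1, fNSF-HA minus PBS from -0.16 to 0.0609 for FTL, and cNSF-HA minus fNSF-HA from -0.0206 to 0.24 for HMOX1 and -0.0181 to 0.20 for FTH1. Between HA groups after tBHP, with the GC trend removed, HMOX1 was -0.1015 for cNSF-HA minus PBS, 0.1106 for fNSF-HA minus PBS and -0.2121 for cNSF-HA minus fNSF-HA, FTL -0.02, 0.0788 and -0.0988 in that order, and FTH1 0.0329 and -0.0105 in the last 2. HMOX1 for cNSF-HA minus PBS was -0.0432 under quantile normalization. With a library left out, cNSF-HA minus PBS ran from -0.0431 to 0.0927 for HMOX1 and -0.0327 to 0.1871 for FTH1, fNSF-HA minus PBS from -0.2172 to 0.0403 for HMOX1, -0.1087 to 0.1121 for FTL and -0.0603 to 0.0228 for FTH1, and cNSF-HA minus fNSF-HA from -0.02 to 0.2376 for HMOX1 and -0.013 to 0.2068 for FTH1. None of these passed the threshold other than TFRC with the GC trend removed.

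The replicate block left the count at 7 genes in the tBHP response with PBS and with fNSF-HA and at 0 in each HA comparison, added SLC40A1 (adjusted p = 0.0198) to make 8 with cNSF-HA, and moved the calls over all genes from 6995 to 7228, 6947 to 7176 and 5733 to 5944. Of 45 correlations of same-numbered libraries across groups, 7 were over 0.1 (range -0.119 to 0.333), so the numbers were taken as names and not as pairs. edgeR, which changes both the scaling and the model, moved the median of all genes in the PBS response to 0.0749 and the share of calls that were higher from 47.4% to 55.7%.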
